A study of Mus musculus with 15 samples.

Results

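The cytosolic ribosomal protein genes encode the proteins of the small (Rps) and large (Rpl) subunits of the ribosome that translates nuclear mRNAs. They were taken from the gene tables by symbol: every row named Rpl or Rps followed by a number and, where present, a letter or paralog suffix, plus Rpsa, Rplp0, Rplp1 and Rplp2, leaving out pseudogene rows ending in -ps and the ribosomal S6 kinases. This rule found 88 members, 51 of the large and 37 of the small subunit, among 27803 listed genes. Every animal's table listed 85 of them, while Rpl39l, Rps12l1 and Rpl3l were listed in 14, 13 and 6. GENCODE annotates 83 as protein coding and 3 (Rps12l1, Rps3a2 and Rps3a3) as processed pseudogenes, and does not list Rps12l2 and Rps4y2 under these symbols. Other ribosomal protein genes, such as Fau and Gnb2l1 (Rack1), fall outside the name rule and are given separately.

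Single cells were profiled by Drop-seq, which counts mRNA molecules by unique molecular identifiers (UMIs) at their 3′ ends, in 15 mice on a C57BL/6 background. The WT group was 5 untreated cerebella at postnatal day (P) 7. The Vehicle and Vismodegib groups were 5 medulloblastomas each from Math1-Cre:SmoM2/EYFPloxP/loxP (M-Smo) littermates of both sexes, collected at P15. Cre was driven by a cloned Atoh1 promoter sequence, and both tumor groups therefore carried SmoM2, a constitutively active Smoothened, in cells of the Atoh1 lineage. Tumor-bearing mice received 3 daily intraperitoneal doses, from P12, of the Smoothened inhibitor vismodegib at 75 mg/kg or of its vehicle alone, a mixture of N-methyl-2-pyrrolidone and polyethylene glycol. Droplets came from a PDMS device for WT and a glass device for tumors, and tumor libraries held a human cell line as spike-in that was removed by alignment. Age, genotype, device and alignment all separate WT from tumors and cannot be told apart.

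Cerebellar granule neuron progenitors (CGNPs) proliferate after birth under Sonic hedgehog signaling and then exit the cell cycle and differentiate, and M-Smo tumors arise when this program fails to stop. A ribosome holds most of its proteins in a single copy, and their mRNAs typically begin with a cytosine followed by pyrimidines, the 5′ terminal oligopyrimidine (TOP) motif, through which mTOR and LARP1 control their translation. Production of ribosomes is generally high in dividing cells and is promoted by MYC family transcription factors.

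The libraries held 2310474 to 17708677 UMIs, and 37946 of 51841 barcodes were kept (7224 WT, 18293 Vehicle and 12429 Vismodegib). No pair of libraries shared more than 13 barcodes, 0.330% of the smaller library. Cells were clustered without the ribosomal protein genes and without any translation gene described here, and clusters were named by marker genes along the trajectory of the CGNP lineage. Node A-like cells carried mitotic markers such as Cdc20 and Top2a, Node B-like cells hedgehog and G1 to S phase markers such as Gli1, Ccnd1 and Mcm3, Node C-like cells early differentiation markers such as Cntn2 and Dcx, and Node D-like cells late differentiation markers such as Grin2b and Rbfox3. The summed Node A markers reached 12368 CPM (UMI counts scaled to a common total) in the Node A-like cells of Vehicle tumors against 518 CPM in their Node D-like cells, and the Node D markers 838 and 4635 CPM. In WT the Node C markers were as high in Node D-like cells (7652 CPM) as in Node C-like cells (7593 CPM). The CGNP-like class is the sum of these stages and of clusters with no clear stage.

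The sequence around the start of transcription was read for the 63 members with a RefSeq start (GRCm38.p6), as windows of 30 bases with 15 before the start. These members had 75 windows, since 10 of them had more than 1 start. The letters CTTTC or CTTTT, a short form of the TOP motif, stood on the sense strand in at least 1 window of 21 members (33.3%) against 8.05% of 26962 other genes, counted the same way. On the antisense strand they stood in a window of 4 members (6.35%) against 7.41%. The windows below show members described in the comparisons that follow, with CTTTC in capitals where it occurs. They span the promoter and the start of the first exon of Rps26 (chr10:128626492-128626521, minus strand), Rpl13a (chr7:45128731-45128760, minus strand), Rpl38 (chr11:114668565-114668594, plus strand), Rplp2 (chr7:141447636-141447665, plus strand), Rplp0 (chr5:115559452-115559481, plus strand) and Rpl5 (chr5:107900513-107900542, plus strand).
Rps26: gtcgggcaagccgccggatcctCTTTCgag
Rpl13a: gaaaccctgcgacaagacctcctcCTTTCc
Rpl38: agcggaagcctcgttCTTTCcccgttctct
Rplp2: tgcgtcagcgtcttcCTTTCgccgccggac
Rplp0: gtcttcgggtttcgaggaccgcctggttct
Rpl5: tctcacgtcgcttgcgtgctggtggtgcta
Rplp0 and Rpl5 held neither motif in this window, which says only that these letters are not there. In the comparisons described below, median log2 fold changes of members with and without a motif were −0.53 (21 members) and −0.62 (41) for vismodegib minus vehicle in CGNP-like cells, −0.74 (20) and −0.84 (41) for vehicle minus WT, and −1.11 (16) and −1.14 (40) for Node D-like minus Node A-like cells of Vehicle tumors. For vismodegib minus vehicle in Node A-like cells they were −0.18 (19) and −0.29 (40). Members with a motif had the less negative median in every comparison but Node D-like minus Node A-like cells of WT (−1.146 and −1.145). These differences were not tested.

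Members spanned a wide range of CPM, here a share of captured molecules that is not divided by transcript length. In CGNP-like cells 20 members exceeded 1000 CPM in Vehicle, 14 in Vismodegib and 30 in WT, and 7, 8 and 5 lay under 10 CPM. The 10 highest held 47.6% of the members' sum in Vehicle, 45.4% in Vismodegib and 36.4% in WT. Rps14, Rpl13a and Rps9 were among these 10 in every group. Over members of at least 32 CPM the coefficient of variation between animals had a median of 21.04% in Vehicle, 25.02% in Vismodegib and 20.26% in WT. It ran up to 70.1% in WT, where replicate 3 carried high values of Rps28, Rpl38 and Rps29, and up to 93.0% in Vismodegib, for Rps3a3.

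The summed ribosomal protein UMIs of CGNP-like cells made up a smaller share of all UMIs after vismodegib. In Vehicle tumors the share was 4.71, 5.35, 4.94, 6.47 and 5.70% (replicates 1 to 5). In Vismodegib tumors it was 3.36, 3.06, 4.27, 2.96 and 3.45%, and in WT 6.16, 6.75, 7.53, 7.19 and 6.92%. All Vismodegib values lay under all Vehicle values, and the Vehicle and WT ranges overlapped. The means were 5.44 ± 0.694% in Vehicle, 3.42 ± 0.515% in Vismodegib and 6.91 ± 0.514% in WT (SD, n = 5 each), and vismodegib minus vehicle was −2.02 ± 0.387 percentage points (SE). As molecules, this was 123 ± 48.8 ribosomal protein UMIs per cell in Vehicle, 75.8 ± 34.0 in Vismodegib and 124.6 ± 18.3 in WT, at mean values of 1889, 1772 and 1326 for the animals' median UMIs per cell. Mitochondrial UMIs were 2.14, 2.52 and 3.78% of the same cells' UMIs, and leaving them out gave mean shares of 5.55, 3.51 and 7.18%. Total RNA per cell was not measured, so fewer ribosomal protein mRNAs and more of all other mRNAs cannot be told apart in a share.

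Ribosomal protein share followed the stage of the lineage in every animal. It was highest in Node B-like, then Node A-like, then Node C-like and lowest in Node D-like cells in 15 of 15 mice. In Vehicle the means were 6.74 ± 1.09%, 5.31 ± 0.673%, 3.51 ± 0.532% and 2.31 ± 0.288% (SD, n = 5). Vismodegib tumors gave 5.43 ± 0.835%, 4.24 ± 0.499%, 2.56 ± 0.486% and 1.68 ± 0.319%, and WT cerebella 9.05 ± 0.503%, 7.51 ± 0.485%, 5.45 ± 0.459% and 3.41 ± 0.404%. The Node B-like class joined cells of the hedgehog program and cells in DNA replication. In tumors it held a cluster of 4905 cells led by Hes1, Wnt4, Atoh1 and Myc and one of 4553 cells led by replication genes such as Cdc6, Mcm6 and Pcna, and both WT clusters had Cdc6 and Mcm3 among their leading genes. In Vehicle the share was 7.45 ± 1.201% in the cluster led by Hes1 and 6.07 ± 1.01% in the one led by replication genes, and in Vismodegib 6.08 ± 1.01% and 5.23 ± 0.825%. Each of these clusters lay above the Node A-like cells of the same animal in 5 of 5 mice of either group. Between animals the Node A-like and Node B-like ranges overlapped in both tumor groups, and the Node C-like and Node D-like ranges overlapped in Vismodegib. The ratio of Node B-like to Node D-like share was 2.92 ± 0.291 in Vehicle, 3.26 ± 0.218 in Vismodegib and 2.67 ± 0.280 in WT. Counted as ribosomal protein UMIs per cell, Node A-like cells had more than Node B-like cells in each group. The means were 193 ± 80.0 and 140 ± 60.5 in Vehicle, 184 ± 89.7 and 128 ± 58.6 in Vismodegib and 283 ± 32.3 and 135 ± 13.7 in WT. Node A-like cells also held more UMIs of all genes, with mean values of 3334 and 1831 for the Vehicle animals' median UMIs per cell.

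**Figure D1:**
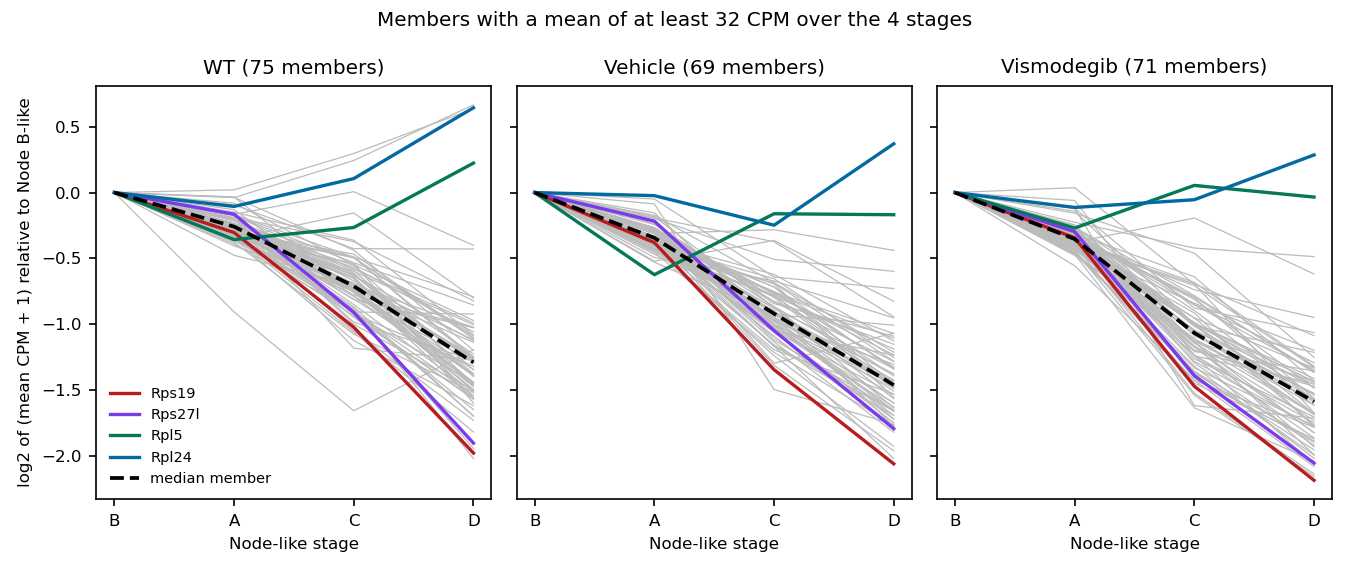
Level of each member of at least 32 CPM by stage (horizontal axis, B, A, C and D), as the log2 of mean CPM plus 1 relative to Node B-like cells (vertical axis), in a panel per group with gray lines for members, colored lines for Rps19, Rps27l, Rpl5 and Rpl24 and a dashed line for the median member. Most lines fall toward Node D-like cells, where 66 of 69 members in Vehicle, 69 of 71 in Vismodegib and 70 of 75 in WT have their lowest mean.

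Within the Vehicle tumors, 70 of 77 members tested fell from Node A-like to Node D-like cells, where 32.8% of all genes fell, and 2 rose, where 33.6% of all genes rose (edgeR, animal as block). The median member changed by −1.14 on the log2 scale, against 0.0015 for all genes tested. With size factors set by the members' own total, which asks how they moved relative to each other, 19 were called higher and 12 lower. The share of all genes called was not counted with these size factors. In Vismodegib tumors 73 of 77 members fell (37.9% of all genes) and none rose (36.8% of all genes, 0 members at an unadjusted p under 0.05, DESeq2 0), with a median of −1.33. In WT 67 of 75 fell (29.5% of all genes) and 2 rose (28% of all genes), with a median of −1.15. The fall from Node A-like to Node D-like cells thus covered nearly all tested members in each group, a larger share than among all genes. The stages were defined from other genes of the same cells.

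Rps19, a small-subunit protein whose gene is often mutated in Diamond-Blackfan anemia, was among the members that fell most. Its level was 1016, 1359, 1175, 1437 and 1053 CPM in Node A-like cells and 316, 438, 339.8, 406 and 381 CPM in Node D-like cells of the 5 Vehicle tumors. Every Node D-like value lay under every Node A-like value, and the log2 fold change was −1.71 ± 0.08 (SE, adjusted p = 2.55e-22). Rplp1, an acidic stalk protein that helps to recruit elongation factors, lay at 1957 to 2811 CPM in Node A-like and 632 to 874 CPM in Node D-like tumor cells (−1.66), again with no overlap. The other stalk members were also called lower, Rplp0 at −1.13 and Rplp2 at −1.30. Rps20, Rps16, Rps26 and Rps2, all of the small subunit, changed by −1.70, −1.60, −1.54 and −1.54.

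Rpl22l1, Rps27l and Rpl7l1, 3 of the paralogs that could be tested, were also called lower in Node D-like cells. Rpl22l1, the paralog of the RNA-binding protein Rpl22, was at 268, 323, 279, 448 and 271 CPM in Node A-like and 103, 84.1, 78.1, 128 and 101 CPM in Node D-like cells of Vehicle tumors, with no overlap and a log2 fold change of −1.71 ± 0.12 (SE, adjusted p = 9.38e-17). Rpl22 itself changed by −1.46. Rps27l, a p53-inducible paralog of Rps27, lay at 337 to 537 CPM before and 88.3 to 196 CPM after this step (−1.63). Rpl7l1 changed by −0.71 and Rpl39, which lines the peptide exit tunnel, by −1.45. Rps27a, made as a fusion with ubiquitin, changed by −1.38, the X-linked Rps4x by −1.46, Rpsa, also known as a laminin receptor, by −1.38, and Rpl41 by −1.41, all called.

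A few members did not share this fall. Rpl5, which forms the 5S ribonucleoprotein with Rpl11 and can bind Mdm2, was at 54.1, 30.2, 35.7, 58.6 and 51.3 CPM in Node A-like and 78.0, 56.1, 64.6, 51.4 and 67.1 CPM in Node D-like cells of Vehicle tumors. The ranges overlapped, and the log2 fold change was 0.40 ± 0.18 (SE, adjusted p = 0.0409), a call that was lost under most alternatives. Its partner Rpl11 fell by 1.22 on the log2 scale (adjusted p = 8.13e-05). Rps4y2 was called higher in Vehicle (0.67) and WT (0.71), and Rpl15 in WT (0.50). In Vehicle no member was called higher with DESeq2, without a filter on low counts, without the animal as block, with an upper limit of 4 SD, or without replicate 2, 3 or 5. In WT 1 member was called higher with the first 4 of these and without replicate 2, 3 or 5, and none with cells thinned to 500 UMIs. Rpl24 had the highest mean in Node D-like cells of Vehicle tumors and a log2 fold change of 0.32 (adjusted p = 0.139) there. Among members of at least 32 CPM, the Node B-like mean was the highest of the 4 stages for 68 of 69 in Vehicle, 68 of 71 in Vismodegib and 70 of 75 in WT. Exons of 23 members overlap those of other annotated genes, on the same strand in 4 (Rpl13a, Rpl19, Rpl24 and Rps10) and on the opposite strand in 20. The latter include Rpl5, Rpl12, Rpl15, Rpl22l1, Rpl32, Rps2, Rps18, Rps27a and Rps28. The study's methods give default settings of the counting tool and do not name its strand setting, so the values of all 23 are uncertain.

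**Figure D2:**
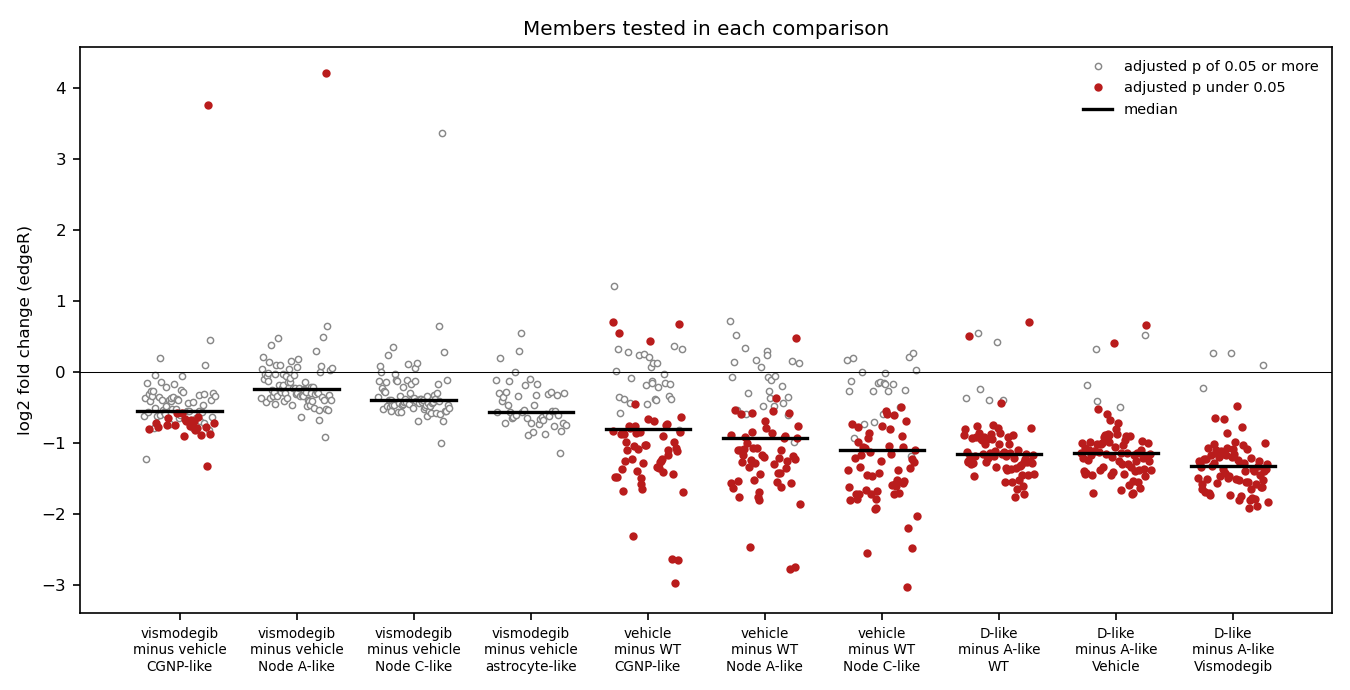
Log2 fold change of each tested member (vertical axis, edgeR) in 10 comparisons (horizontal axis), with filled points where the adjusted p was under 0.05 and a bar at the median. Medians lie at −0.55 for vismodegib minus vehicle in CGNP-like cells, −0.80 for vehicle minus WT in CGNP-like cells and −1.14 for Node D-like minus Node A-like cells of Vehicle tumors.

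After vismodegib a minority of the members fell in CGNP-like cells. Of 84 members tested, 23 fell, against 4.69% of all genes, and Rps3a3 rose, against 8.59% of all genes, while 60 were not called. The median member changed by −0.55, against 0.0024 for all genes, and 80 of 84 had a fitted change below 0. Rps12l1, Rps12l2, Rps3a2 and Rpl3l were too low to test. Without Vehicle replicate 4, 15 members were called lower, without Vismodegib replicate 3 it was 34, and with each cell thinned to 500 UMIs 35. With size factors set by the members' own total, which asks how they moved relative to each other, 1 was called lower and 7 higher. The shares of all genes given here belong to the main fit and were not counted for these alternatives. The Vehicle libraries enter both this comparison and the one with WT.

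The named members covered both subunits. Rplp0, the base of the ribosomal stalk, was at 1669, 1783, 1195, 2432 and 2305 CPM in Vehicle and 905, 736, 1259, 874 and 1245 CPM in Vismodegib. Vehicle replicate 3 lay within the Vismodegib range, so the groups overlapped, and the log2 fold change for vismodegib minus vehicle was −0.90 ± 0.22 (SE, adjusted p = 0.0142). The stalk partners Rplp1 and Rplp2 changed by −0.66 and −0.69, both called.

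Rps26, which contacts mRNA at the exit channel, was at 1271, 2069, 1891, 2881 and 1799 CPM in Vehicle and 1240.0, 1044, 1197, 815 and 1109 CPM in Vismodegib. All Vismodegib values were lower, by a narrow margin to Vehicle replicate 1, and the log2 fold change was −0.89 ± 0.21 (SE, adjusted p = 0.0115). Rps19 was at 1023, 1374, 1149, 1380.3 and 1112 CPM in Vehicle and 799, 607, 806, 631 and 594 CPM in Vismodegib, with no overlap and a change of −0.81 ± 0.15 (SE, adjusted p = 0.00281). Rpl13a, known for its part in silencing inflammatory mRNAs outside the ribosome, went from 3024 ± 480.1 to 1748 ± 271 CPM (SD, n = 5), a change of −0.79 (adjusted p = 0.00473). Rps20 changed by −0.79 (adjusted p = 0.0163) and Rpl23, another binder of Mdm2, by −0.77 (adjusted p = 0.00724). Other called members (Rps3, Rps9, Rps14, Rps15, Rps15a, Rps18, Rps21, Rpl4, Rpl8, Rpl22, Rpl32, Rpl34 and Rpl39) had log2 fold changes of −0.77 to −0.57.

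Rpl22 fell from 1306 ± 137 to 799.7 ± 81.6 CPM, a change of −0.71 (adjusted p = 0.00271). For its paralog Rpl22l1 the means were 273 ± 70.3 and 178 ± 39.9 CPM, and the change of −0.62 (adjusted p = 0.0622) did not pass. Rpl39 was called lower (−0.74), and its testis-enriched paralog Rpl39l, at most 6.62 CPM in any animal, was not (−0.51, adjusted p = 0.786). Rps27l had a value of −0.31 (adjusted p = 0.319) and Rpl7l1 of −0.05 (adjusted p = 0.852). Rps6, the substrate of the S6 kinases, lay at 5.87 to 11.1 CPM in Vehicle and 3.31 to 11.5 CPM in Vismodegib (−0.40, adjusted p = 0.488).

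Fitted changes of some members lay near 0. Rpl19 had a log2 fold change of −0.04 (adjusted p = 0.933), Rps29 of 0.09 (adjusted p = 0.872) and Rpl11 of −0.15 (adjusted p = 0.759). Rpl38, which promotes translation of Hox mRNAs, was at 257, 243, 451, 226 and 264.5 CPM in Vehicle and 56.3, 184, 350.2, 405 and 271 CPM in Vismodegib. These groups overlapped widely, and the change was −0.16 ± 0.39 (SE, adjusted p = 0.836). Rpl5, Rpl10, Rpl41, Rps27a, Rps4x, Rpsa and Rpl36a had values between −0.81 and −0.33 and were not called.

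**Figure D3:**
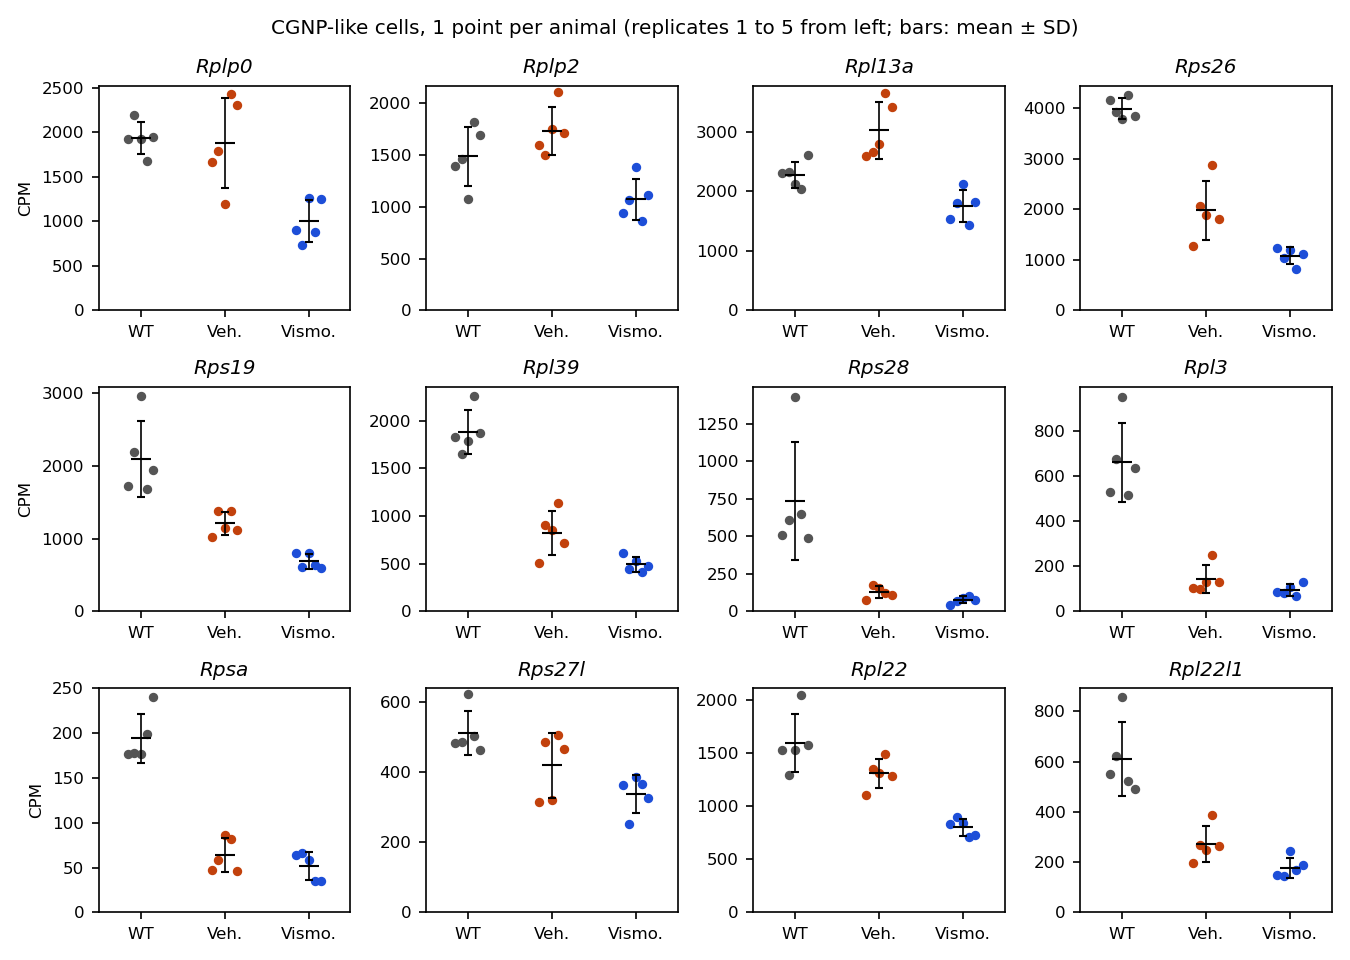
CPM of 12 members in CGNP-like cells (vertical axes) for WT, Vehicle and Vismodegib (horizontal axes), with 1 point per animal and bars at the mean ± SD. Rps28, Rpl3 and Rpsa are highest in WT, and all Vismodegib values of Rps19 lie under all Vehicle values.

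The CGNP-like class held more late-stage cells after vismodegib, and those cells had the lowest ribosomal protein share. Node D-like cells, as clustered here, were 11.6 ± 3.15% of staged cells in Vehicle and 43.5 ± 14.9% in Vismodegib (SD, n = 5), with no overlap. Each animal's stage shares were then weighted to the mean Vehicle stage mix of UMIs, in which Node D-like cells held 7.52%. So weighted, the ribosomal protein share was 5.44 ± 0.790% in Vehicle and 4.31 ± 0.621% in Vismodegib, and these ranges overlapped. Within stages, vismodegib minus vehicle was −1.07 ± 0.375 percentage points (SE) for Node A-like, −1.31 ± 0.614 for Node B-like, −0.950 ± 0.322 for Node C-like and −0.635 ± 0.192 for Node D-like cells. The Vismodegib mean was lower in each stage, and the animals of the groups overlapped in each. The mix of clusters inside a stage also shifted. In Node B-like cells the clusters led by Hes1 and by replication genes held 4283 and 3263 cells in Vehicle and 622 and 1290 in Vismodegib. In Node C-like cells the cluster of lower share took a larger part after vismodegib. The values within stages and at the Vehicle mix therefore do not hold the make-up of a stage constant.

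Within the stages tested by member, Node A-like and Node C-like, few members passed. Single members were not tested between treatments in Node B-like and Node D-like cells. In Node A-like cells none of 81 members fell, against 1.65% of all genes, and Rps3a3 rose, against 0.758%. The median member changed by −0.24, and DESeq2 called 1 lower. At an unadjusted p under 0.05, 16 members were lower and 1 was higher, against 11.6% of all genes in either direction. In Node C-like cells none of 77 members was called higher (0.087% of all genes) or lower (0.174% of all genes), with a median of −0.40. There 23 were lower and 1 higher at an unadjusted p under 0.05, against 8.46% of all genes in either direction, and DESeq2 called 1 lower. The tumor cluster named by astrocyte markers was a mixture. Of its 783 cells 383 kept that name at clustering resolution 1.2, and most others fell into a cluster led by Myh3, Ttr and Acta1, genes of muscle and choroid plexus. The part that kept the name was 15.8 to 80.6% of the cluster in single tumors, and in WT it was 394 of 394 cells. In this mixed cluster none of 48 members was called higher (0.222% of all genes) or lower (0.0633% of all genes) by edgeR or DESeq2. The median was −0.56, and 18 members were lower at an unadjusted p under 0.05, against 8.77% of all genes in either direction. Whether the treatment effect differed between Node C-like and Node A-like cells was tested as an interaction. None of 81 members passed in either direction by either tool (1.04% of all genes were higher and 1.27% lower), with a median difference of −0.14. Of these members 14 were lower at an unadjusted p under 0.05, against 12.3% of all genes in either direction. With an upper limit of 4 SD on cells 10 members were called lower in this interaction, and without Vismodegib replicate 3 it was 2. The share of all genes called was not counted under these settings. Values for single members in Node A-like cells included Rps14 at −0.48 (adjusted p = 0.0851) and Rplp0 at −0.63 (adjusted p = 0.198), and in Node C-like cells Rpl22 at −0.50 (adjusted p = 0.182).

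An earlier search over divisions of these tumors by gene expression set apart 2 sets that do not follow the treatment (set 1, Vehicle 1 and 3 with Vismodegib 1 to 3, and set 2, the others). The sets come from the data, and the labels name no batch for them. The CGNP-like share was 4.71 to 4.94% in Vehicle (n = 2) and 3.06 to 4.27% in Vismodegib (n = 3) of set 1. In set 2 it was 5.35 to 6.47% (n = 3) and 2.96 to 3.45% (n = 2). Within stages, the Vehicle and Vismodegib animals of set 1 overlapped in Node B-like (5.42 to 6.27% and 4.45 to 6.26%), Node C-like (3.05 to 3.25% and 1.96 to 3.15%) and Node D-like cells (1.93 to 2.11% and 1.32 to 2.11%). In set 2 they did not overlap in any of the 4 stages. Those of set 1 did not overlap in Node A-like cells by a very narrow margin, from 4.63443% in Vehicle and up to 4.6255% in Vismodegib. The stages come from the same few animals, and these separations at n = 2 and n = 3 were not tested.

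**Figure D4:**
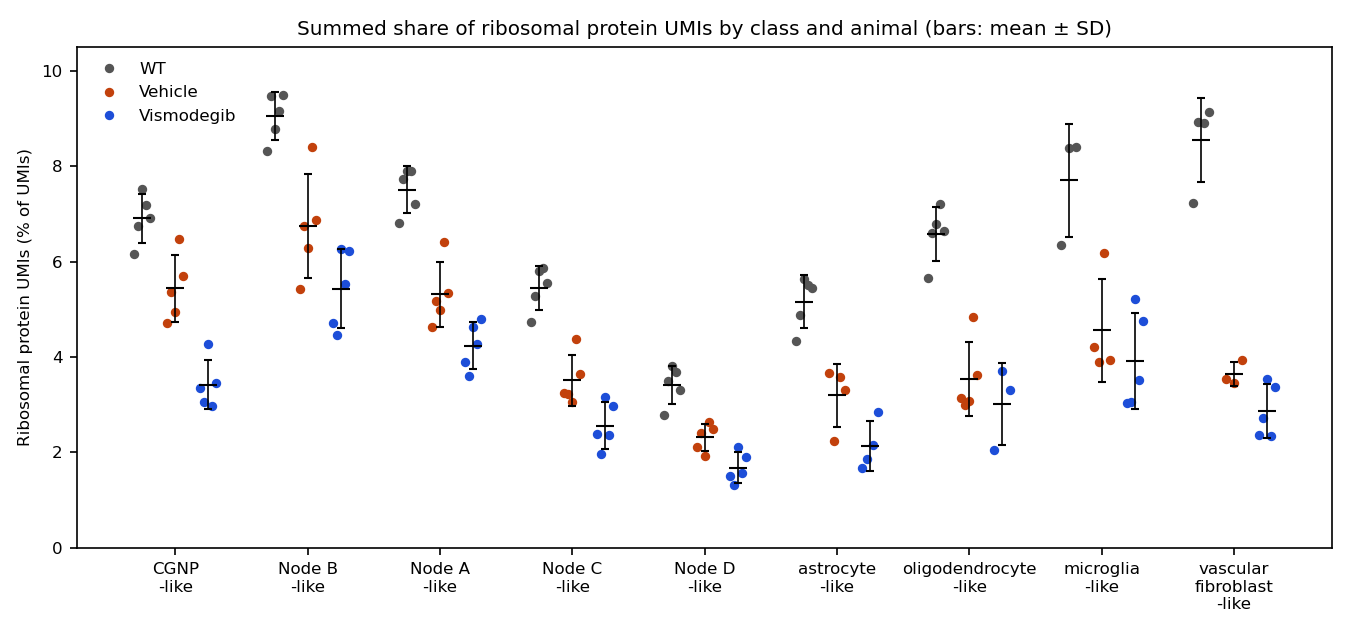
Summed ribosomal protein share (percent of UMIs, vertical axis) in each class with at least 20 cells per animal (horizontal axis), with 1 point per animal for WT, Vehicle and Vismodegib. In CGNP-like cells the Vismodegib points (2.96 to 4.27%) lie under the Vehicle points (4.71 to 6.47%), and the tumor points of the astrocyte-like class are those of the mixed cluster.

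Vehicle tumors differed from WT in more members, and in both directions. In CGNP-like cells 50 of 84 members tested were lower, against 23.2% of all genes, and 4 were higher, against 21% of all genes, with a median of −0.80. The count of higher members was 2 without WT replicate 4, 7 without Vehicle replicate 1, 10 without a filter on low counts, and 15 (with 35 lower) with size factors set by the members' own total. For these settings the share of all genes called was not counted. In Node A-like cells 54 of 81 were lower (18% of all genes) and 1 was higher (17.3% of all genes). In Node C-like cells 56 of 79 were lower (16.1% of all genes) and none was higher (14.4% of all genes, none at an unadjusted p under 0.05, DESeq2 0). Medians were −0.92 and −1.10, and the summed shares of the groups did not overlap in Node A-like, Node C-like and Node D-like cells. They overlapped in Node B-like cells, at up to 8.40% in Vehicle and from 8.31% in WT. In CGNP-like, Node A-like and Node C-like cells the share of members called lower was above that of all genes, and the share called higher was below it. Tumor and WT cells were clustered separately, so a stage name need not cover the same cells in both. WT Node A-like cells were a single cluster of 830 cells led by Ube2c. In the tumors of both groups they were a cluster of 3546 cells led by Hist1h2ak and Esco2 and one of 1184 led by Ccnb1 and Ube2c. The part of this make-up in the differences was not tested.

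Rps28, a small-subunit protein near the mRNA exit, was at 506, 606, 1425, 650.3 and 489 CPM in WT and 79.0, 174, 158, 124 and 108 CPM in Vehicle. WT replicate 3 was the highest, every Vehicle value lay under every WT value, and the log2 fold change was −2.63 ± 0.32 (SE, adjusted p = 1.42e-05). Rpl3, a core protein at the peptidyl transferase center, was at 533, 678, 953, 516 and 637 CPM in WT and 105, 99.1, 129, 251 and 129 CPM in Vehicle, with no overlap and a change of −2.30 ± 0.27 (SE, adjusted p = 1.18e-05). Rpsa was at 177, 178, 176, 199 and 239.9 CPM in WT and 47.4, 58.4, 86.7, 81.7 and 45.8 CPM in Vehicle, again with no overlap and a change of −1.69 ± 0.20 (SE, adjusted p = 1.22e-05). Rpl19, Rpl38, Rpl37 and Rpl37a, all of the large subunit, changed by −1.67, −1.64, −1.58 and −1.49. Rps4y2, which RefSeq gives as a synonym of the transcribed pseudogene Rps4l, was at 80.7 to 118 CPM in WT and 13.8 to 20.5 CPM in Vehicle (−2.64).

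Members higher in Vehicle than in WT included Rpl8 (0.43, adjusted p = 0.0231), Rpl15 (0.55, adjusted p = 0.0400) and Rpl10 (0.70, adjusted p = 0.0309). The call of Rpl15 was lost with the replicate block (adjusted p = 0.0992), with an upper limit of 4 SD (0.0543), without clusters led by hemoglobin genes (0.0663), and without WT replicate 3, 4 or 5 or Vehicle replicate 2, 4 or 5 (0.0524 to 0.103). Rpl8, a large-subunit protein near the peptidyl transferase center, was at 1576 to 2417 CPM in Vehicle and 1113 to 1609 CPM in WT, and the groups overlapped. Rpl10, which joins the large subunit late in assembly, did not overlap, at 26.2 to 34.4 CPM in Vehicle and 8.73 to 23.1 CPM in WT. The 3′ end of Rpl10 is near-identical to that of 9 other genes, and the part of read assignment in its low values was not tested. The stalk members Rplp0, Rplp1 and Rplp2 had values of −0.12, −0.16 and 0.13 and were not called. Rpl39 (−1.28), Rpl22l1 (−1.25), Rpl41 (−1.03), Rpl11 (−1.48), Rps4x (−1.10) and Rpl36a (−0.85) were called lower, and Rpl22 (−0.38), Rps27l (−0.38), Rpl7l1 (0.22), Rps27a (−0.17) and Rps6 (−0.81) were not called.

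In the other cell types too, means were lower in Vehicle than in WT and, by a smaller step, lower in Vismodegib than in Vehicle. In the astrocyte-like cells of resolution 1.2 the share was 5.16 ± 0.547% in WT (n = 5), 1.93 and 2.37% in Vehicle (n = 2) and 1.59 ± 0.365% in Vismodegib (n = 4). In the mixed cluster described above it was 3.19 ± 0.659% in Vehicle (n = 4) and 2.13 ± 0.519% in Vismodegib (n = 4). Oligodendrocyte-like cells gave 6.58 ± 0.569% (n = 5), 3.54 ± 0.769% (n = 5) and 3.02 ± 0.859% (n = 3). Microglia-like cells gave 7.71 ± 1.18% (n = 3), 4.55 ± 1.09% (n = 4) and 3.91 ± 1.01% (n = 5), and vascular fibroblast-like cells 8.55 ± 0.889% (n = 4), 3.64 ± 0.256% (n = 3) and 2.87 ± 0.560% (n = 5). WT lay above Vehicle without overlap in all 4 of these classes, and Vehicle and Vismodegib overlapped in all 4. For vismodegib minus vehicle the SE exceeded the difference in microglia-like (−0.643 ± 0.705 points) and oligodendrocyte-like cells (−0.518 ± 0.604). It did not in vascular fibroblast-like cells (−0.774 ± 0.291) and the mixed cluster (−1.06 ± 0.419). The microglia-like Vehicle mean included 6.17% in replicate 4, the highest of 4 animals. Rows of ribosomal protein pseudogenes, which are not members, also took a larger share in WT (0.667 ± 0.202% of CGNP-like UMIs) than in Vehicle (0.172 ± 0.0501%) or Vismodegib (0.101 ± 0.0231%). The Node B markers, some of which any dividing cell uses, summed to 1174 CPM in microglia-like cells of Vehicle tumors against 5342 CPM in Node B-like cells, and the part of free RNA in these shares was not tested.

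Rps3a3, a processed copy of the small-subunit gene Rps3a1, had the highest coefficient of variation (93.0%) in Vismodegib among members of at least 32 CPM. Its mean reached that level only in this group, through the same 3 high animals that made it variable. The annotated transcripts of Rps3a3 and Rps3a1 aligned over 795 bases with 9 mismatches and no gap, an identity of 98.9%. A stretch of 30 bases, counted from the 5′ end as bases 320 to 349 of Rps3a1 and 187 to 216 of Rps3a3, shows how close they are, with the differing base in capitals.
Rps3a1: aagggtcgtgtgtttgaagtgagccttgcT
Rps3a3: aagggtcgtgtgtttgaagtgagccttgcC
Rps3a3 was at 371, 15.6, 406, 228 and 3.15 CPM in CGNP-like cells of Vismodegib replicates 1 to 5. It was at 16.9, 28.4, 20.1, 6.49 and 5.01 CPM in Vehicle and 21.8, 29.1, 44.5, 22.3 and 33.8 CPM in WT. Vismodegib replicates 1, 3 and 4 stood far above all other animals, and the same 3 animals were the high ones in every stage. The log2 fold change for vismodegib minus vehicle was 3.76 ± 0.98 (SE, adjusted p = 0.0206) in CGNP-like and 4.21 ± 0.89 (SE, adjusted p = 0.0157) in Node A-like cells.

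Rps3a1 was at 172, 357, 345, 188 and 536 CPM in Vismodegib and 679.8, 697, 720.3, 1030.5 and 839 CPM in Vehicle, with no overlap and a change of −1.32 ± 0.27 (SE, adjusted p = 0.00615). In the 3 animals with high Rps3a3, that copy made up 68.3%, 54.0% and 54.8% of the sum of both. The sum was 809 ± 139 CPM in Vehicle, 524 ± 147 CPM in Vismodegib and 1500.3 ± 284 CPM in WT (SD, n = 5). The sums of the tumor groups overlapped, from 697 CPM in Vehicle and up to 751 CPM in Vismodegib, and the log2 ratio of their means was −0.63, against −1.31 for Rps3a1 alone. Since reads of copies this similar can be assigned to either, both genes' values are uncertain, and the call of Rps3a3 in CGNP-like cells was lost without Vehicle replicate 5 (adjusted p = 0.0533) and with the replicate block (adjusted p = 0.0774). In Node A-like cells no member was called higher without Vehicle replicate 5, without Vismodegib replicate 3 or with thinned cells.

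**Figure D5:**
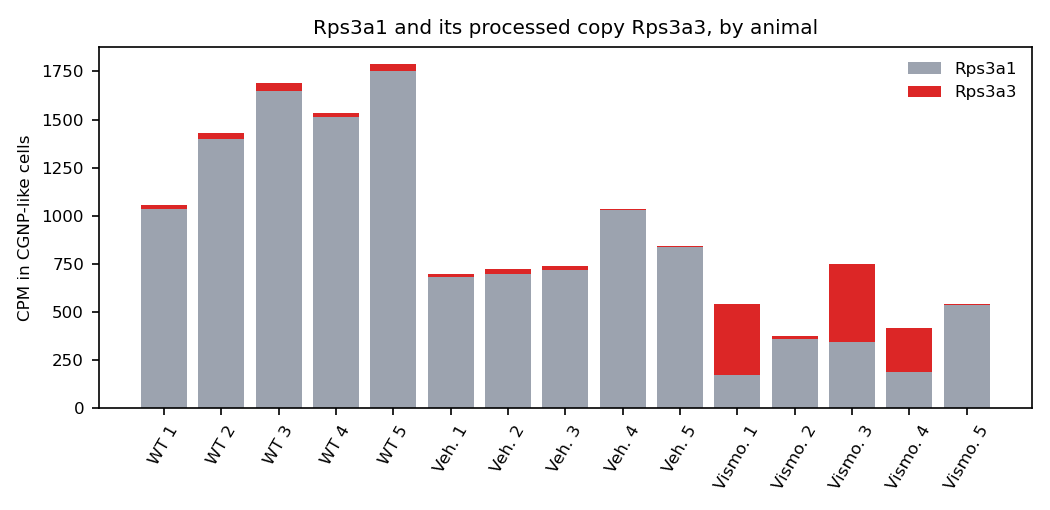
CPM of Rps3a1 (gray) and Rps3a3 (red) in CGNP-like cells (vertical axis), stacked for each of the 15 animals (horizontal axis). Rps3a3 reaches 371, 406 and 228 CPM in Vismodegib replicates 1, 3 and 4 and at most 44.5 CPM elsewhere.

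Near-identical copies are common for these genes. Of 86 members with an annotated transcript, 36 had no other gene with at least 97% identity over at least 100 of the last 300 bases, 28 had 1 to 4 and 22 had 5 or more, up to 33 for Rps2. In Vehicle CGNP-like cells the median of the mean levels was 333, 281 and 63.8 CPM in these 3 groups of members. After vismodegib 12 of 35, 9 of 28 and 2 of 20 tested members of the groups were called lower, with medians of −0.57, −0.57 and −0.45. For vehicle minus WT these counts were 18 of 34, 16 of 28 and 15 of 21, and for Node D-like minus Node A-like cells of Vehicle tumors 30 of 32, 25 of 27 and 15 of 17. Over all genes tested 4.69%, 23.2% and 32.8% were lower in these comparisons. Differences between the groups of members, and the part of read assignment in them, were not tested.

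Other genes of translation also changed along the stages, where 32.8% of all genes fell and 33.6% rose. From Node A-like to Node D-like cells of Vehicle tumors, all 3 ribosomal proteins outside the name rule fell, as did 15 of 16 elongation factors and other TOP mRNAs (median −0.71), 18 of 22 ribosome biogenesis genes (−1.06) and 43 of 72 mitochondrial ribosomal protein genes (−0.44). Of these lists 0, 0, 2 and 3 genes rose. Gar1, of the pseudouridylation complex, changed by −2.18 (adjusted p = 2.92e-16), the nucleolar chaperone Npm1 by −1.74 (adjusted p = 3.96e-20), and Eef1d, an elongation factor subunit, by −1.48 (adjusted p = 7.18e-15). Of 14 initiation factors 9 fell and Eif4a2 rose (0.85, adjusted p = 8.63e-08). Of 12 regulators 4 fell and 3 rose, near the shares of all genes. Among them Eif4ebp1, an inhibitor of cap-dependent initiation, changed by −4.05 (adjusted p = 1.15e-15), Myc by −2.86 (adjusted p = 2.22e-12) and Mycn by −1.64 (adjusted p = 2.72e-15), while Tsc1, an mTOR inhibitor, changed by 1.14 (adjusted p = 4.14e-09).

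After vismodegib fewer of these genes passed in CGNP-like cells, where 4.69% of all genes were lower. Among the ribosomal proteins outside the name rule, 1 of 3 was lower, Gnb2l1 at −0.78 (adjusted p = 0.0163). Lower were 2 of 17 elongation and TOP genes (median −0.43), Eef1b2 at −0.79 (adjusted p = 0.0132) and Eif3f at −0.58 (adjusted p = 0.0202). None of 14 initiation factors was called (median −0.04), while 2 of 24 biogenesis genes (Polr1c and Nop16, median −0.26), 1 of 75 mitochondrial ribosomal protein genes (Mrpl52, median −0.22), a smaller share than among all genes, and 3 of 12 regulators were lower. These 3 were Myc at −3.02 (adjusted p = 2.72e-06), Mycn at −0.96 (adjusted p = 0.00582) and Eif4ebp1 at −0.97 (adjusted p = 0.0218). Of 6 genes of the p53 arm, which links stalled ribosome assembly to growth arrest, Trp53 (−0.85, adjusted p = 0.00718) and Eda2r (−0.82, adjusted p = 0.0377) were lower. Within stages, 1 of 12 regulators in Node A-like and 1 of 10 in Node C-like cells was lower (1.65% and 0.174% of all genes). No other gene of these lists was called in either stage. The part of the shift in stage mix, described above, in the CGNP-like values of these genes was not tested.

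Between Vehicle and WT genes of these lists were called in both directions, as were 21% (higher) and 23.2% (lower) of all genes. Of 24 biogenesis genes 10 were higher and 4 lower (median 0.32), and of 12 regulators 6 were higher and 1 lower (0.60), Myc at 3.20 (adjusted p = 4.48e-07) and Eif4ebp1 at 2.37 (adjusted p = 2.39e-05). Polr1a, the largest subunit of RNA polymerase I, was higher (1.12, adjusted p = 0.00141). The 17 elongation and TOP genes split into 2 higher and 7 lower (−0.24), and the 14 initiation factors into 2 and 5. The 75 mitochondrial ribosomal protein genes split into 10 and 11 (−0.05), for this list smaller shares than among all genes in both directions. Outside the name rule Gnb2l1 was higher (0.89, adjusted p = 0.000962) and Fau was lower (−1.39, adjusted p = 0.000104).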

How the data were processed

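Drop-seq UMI tables of 5 WT, 5 Vehicle and 5 Vismodegib mice were used. The authors made these deposited counts with Drop-seq Tools and STAR on mm10. Tumor reads were first aligned to hg19 and mm10 together to remove HEK 293 cells, then to mm10 with transgene sequences, and WT reads once. The study's methods state default settings, and the gene annotation and the strand setting are not named in the sources used here. Barcodes with over 500 UMIs and 500 genes and under 5 SD above the median (also for mitochondrial UMIs) were kept, clustered separately for tumor and WT at resolution 0.8, and named by markers. No doublet caller was run. Clusters led by hemoglobin genes took their name from the other markers, and a stage needed a mean log2 fold of 0.5, both set after the data were seen. The counts were summed per animal and class (at least 20 cells) and tested with edgeR 4.0.16 in R 4.3.3 (quasi-likelihood, TMM, filterByExpr), with Benjamini-Hochberg adjustment over all genes tested. A gene was called at an adjusted p under 0.05. DESeq2 1.42.0 was an alternative, and the scripts were tested on simulated data. Shares of UMIs have no test. Named members were the 8 called members of at least 32 CPM that moved most each way in CGNP-like cells and between stages in Vehicle, a list of stalk, autoregulated and paralog members, and called members against the median sign. The members and lists were chosen with earlier results of these data known. P-values measure the spread between animals or, with the animal as block, the spread between animals of the difference between stages. Some items are not reported here.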

Additional observations from a re-analysis of the deposited data

Results flagged for a closer look

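The summed share in microglia-like cells was 6.17% in Vehicle replicate 4, the highest of 4 animals. In vascular fibroblast-like cells it was 7.22% in WT replicate 1, the lowest of 4. Each of these animals stood apart from the rest of its group by a large part of the group's range (Dixon's ratio). By the same measure in CGNP-like cells, Rpl23 was high in Vismodegib replicate 3 (397 CPM), Rpl3 in Vehicle replicate 4 (251 CPM) and Rpl38 in Vehicle replicate 3 (451 CPM). Rps27l (623 CPM) and Rps28 (1425 CPM) were high in WT replicate 3. Of 102 groups of animals examined 7 were past the limit, where chance at 1 in 20 gives 5.1.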

How the results depend on the processing

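Over 29 results on named members and 544 alternative values, 514 kept their direction and call, 30 lost the call and 0 reversed. The calls lost were those of Rps3a3, Rpl15, Rpl5 and 7 members lower after vismodegib, the latter with size factors set by the members' own total. With those size factors, vismodegib minus vehicle in CGNP-like cells called 7 members higher and 1 lower, vehicle minus WT called 15 higher and 35 lower, and Node D-like minus Node A-like cells of Vehicle called 19 higher and 12 lower. The cause of the changes below was not tested. Shares of all genes called were counted in the main fits only, so the member counts of the alternatives have none beside them.

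For vismodegib minus vehicle, the replicate block left 0 members higher in CGNP-like cells, 1 lower in Node A-like cells, and 1 higher and 1 lower in Node C-like cells. Same-numbered Vehicle and Vismodegib animals correlated at −0.14 to 0.40 (0.36 for replicate 4 and 0.40 for 5) in their deviations from the group means, at or under 0.1 in 3 of 5 pairs, so the numbers were not taken as pairs. With the block Rps3a3 had an adjusted p of 0.0774, and 2 of 5 Vehicle animals correlated best with their own number (WT and Vehicle 0 of 5). Thinning each cell to 500 UMIs gave 35 lower in CGNP-like cells and 0 higher and 1 lower in Node A-like cells. DESeq2 called 1 lower in Node A-like and 1 in Node C-like cells. Without a filter on low counts 2 were lower in Node A-like cells, 1 higher and 2 lower in Node C-like cells, and 1 higher in astrocyte-like cells. With the set of tumors as covariate 1 was higher in Node C-like cells, and with an upper limit of 4 SD 1 was lower there. In the interaction of treatment and stage 10 were lower at 4 SD and 1 at resolution 1.2.

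For vehicle minus WT without the filter, 10 were higher in CGNP-like, 4 in Node A-like and 1 in Node C-like cells. For Node D-like minus Node A-like cells of Vehicle, 0 members were higher with DESeq2, with no filter, with no replicate block and at 4 SD, and 1 with DESeq2 size factors, with library sizes from other genes, at resolution 1.2 and with thinned cells. In Vismodegib 1 was higher with no filter and at resolution 1.2. In WT 1 was higher with DESeq2, no filter, no replicate block and 4 SD, and 0 with thinned cells, where the share changed by −3.88 points against −4.10. Leaving out clusters led by hemoglobin genes, chosen after seeing the data, kept these counts within 1.5 times.

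Leaving out each animal in turn gave 15 (without Vehicle replicate 4) to 34 (without Vismodegib replicate 3) members lower and 0 to 1 higher for vismodegib minus vehicle in CGNP-like cells, 0 to 1 either way in Node A-like and Node C-like cells, and 0 to 0 in astrocyte-like cells. For vehicle minus WT it gave 44 to 54 lower and 2 (without WT replicate 4) to 7 (without Vehicle replicate 1) higher in CGNP-like cells, 48 to 55 and 0 to 2 in Node A-like cells, and 51 to 57 and 0 to 1 in Node C-like cells. For Node D-like minus Node A-like cells it gave 70 to 73 lower and 0 to 2 higher in Vehicle, 70 to 76 and 0 to 1 in Vismodegib, and 65 to 67 and 1 to 2 in WT, and for the interaction 0 to 2 lower and 0 to 0 higher. Share differences in points ran from −2.23 to −1.76 (vismodegib minus vehicle, CGNP-like), −1.24 to −0.796 (Node A-like), −1.64 to −0.892 (Node B-like), −1.10 to −0.732 (Node C-like) and −0.743 to −0.545 (Node D-like), from −1.73 to −1.29, −2.48 to −2.03 and −2.15 to −1.82 (vehicle minus WT in CGNP-like, Node A-like and Node C-like cells), and from −3.12 to −2.80, −2.63 to −2.47 and −4.14 to −4.06 (Node D-like minus Node A-like in Vehicle, Vismodegib and WT).

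Stages rest on rebuilt clusters, classes under 20 cells in an animal were left out, and low members have too few UMIs per animal to show modest changes.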

Other observations

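GABAergic interneuron-like and Purkinje-like clusters, which belong to no comparison above, were named in WT, and at resolution 1.2 a neuron-like cluster of 1384 cells was named in tumors, most of it Node D-like in the clustering used above. In WT the summed ribosomal protein share was 5.71 to 6.80% in GABAergic interneuron-like cells (mean 6.35 ± 0.401%, SD, n = 5), above the 3.41 ± 0.404% of Node D-like cells of the same animals. Purkinje-like cells had 2.62 and 2.74% (n = 2).

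Rpl10l and Rpl39l, paralogs best known from the male germ line, were low, with the lowest values in the same numbered tumors of both groups. Rpl10l was at 15.9, 12.4, 6.53, 1.42 and 0.781 CPM in CGNP-like cells of Vehicle replicates 1 to 5 and 4.26, 6.37, 6.45, 0.451 and 0.262 CPM of Vismodegib replicates 1 to 5. In both groups replicates 4 and 5 were the lowest, a split that differs from the 2 sets of tumors above in Vehicle replicate 2, and Rpl39l followed the same split (4.89, 6.62, 3.27, 0.406 and 0.130 CPM in Vehicle, 3.78, 5.80, 1.84, 0.451 and 0.131 CPM in Vismodegib).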
